A study of Drosophila melanogaster with 4 samples.

Results

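The genes of the proteasome were examined in fly heads of the F1 generation after parental exposure to Cr(VI), given in the food as 10 µM K2Cr2O7. The members were the rows of the deposited table whose names start with Pros, Rpn or Rpt, 48 of 16680 genes. Of these, 32 encode subunits of the constitutive proteasome (14 of the 20S core and 18 of the 19S cap), 15 are paralogs of such subunits, and 1, Prosap, is no proteasome gene but encodes a synaptic scaffold and shares only the first letters of its name. All flies were adult males that carried Kr If-1, a dominant allele of the transcription factor gene Krüppel that drives ectopic Krüppel in the eye disc and so makes the eye prone to outgrowths. One group had no phenotypic variation of the eye and the other had one. Each group had 2 libraries, labelled as biological repeats, and each library was made from the pooled RNA of 10 heads. Heads of flies whose parents were never exposed were not among these samples, so both groups share the parental exposure. A head also holds many tissues, so a change in RNA per cell and a change in the share of a cell type cannot be told apart in these values.

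The proteasome degrades proteins that carry chains of ubiquitin. Its 20S core is a barrel of stacked rings, with outer rings of alpha subunits that gate the entrance and inner rings of beta subunits that hold the proteolytic sites. The 19S cap binds the substrate through ubiquitin receptors, removes the ubiquitin and unfolds the chain with a ring of Rpt ATPases, while the Rpn subunits form the scaffold and the lid. Subunit genes are known to be transcribed together, and when proteasome activity is blocked they rise as a set, in flies through the transcription factor Cnc. In the fly testis, paralogs replace some of the constitutive subunits.

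The values were FPKM, that is read numbers scaled by transcript length and by the mapped reads of the library. Levels can thus be compared between genes, and between libraries only up to a scaling factor. Such factors from median ratios, not used in the main fit, were 0.956 and 0.983 without and 1.01 and 1.04 with phenotype. The number of reads is not recorded in FPKM, and no counting interval was computed. From the smallest values of 1222 short genes with 1 annotated transcript, relative depth was 1.10 in repeat 2 without phenotype and 1.11 and 0.963 in repeats 1 and 2 with phenotype, against repeat 1 without phenotype. This estimate is rough. The deposited values have 2 decimals, which is coarse beside such small values, so these differences in depth are not resolved. Head markers were present in all libraries, with ninaE, the main rhodopsin, at 544 to 948 FPKM and the glial factor repo at 20.7 to 23.6 FPKM. The lowest of them, Rh4, was at 1.89 to 3.59 FPKM. The summed level of the 18 head markers was 2995 and 2593 FPKM without and 3612 and 2901 FPKM with phenotype. Repeat 2 without phenotype, the library with the highest subunit levels, was the highest for 0 of 18 (25.1% of all genes tested). The part of this in the level of the subunits was not tested. The largest change among them was that of trpl, a photoreceptor channel gene, at 53.8 and 36.3 FPKM without and 79.5 and 55.9 FPKM with phenotype (adjusted p = 0.26 from limma). Of 25 digestive enzyme genes whose mean was 1 FPKM or more, 15 were at least 1.5-fold above all other libraries in repeat 1 without phenotype (1.6% of all genes tested), and 12 at least 1.5-fold below all others in repeat 2 without phenotype (1.57%). The summed level of the whole list of 34 was 686 and 199.6 FPKM without and 149.9 and 375 FPKM with phenotype. The starch enzyme gene Amy-p had the highest mean of them, at 110.4 and 39.6 FPKM without and 36.2 and 56.3 FPKM with phenotype. The trypsin gene betaTry had the largest change, at 0.08 and 0 FPKM without and 3.61 and 8.84 FPKM with phenotype (adjusted p = 0.12 from limma).

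The constitutive subunits were abundant, and 1 library held about 2-fold more of them than each of the others. Summed over the 32 subunits, the level without phenotype was 3527 FPKM in the first repeat and 6951 FPKM in the second, and with phenotype it was 3391 and 3106 FPKM. The subunits thus made up 0.58% of all FPKM in repeat 1 and 1.19% in repeat 2 without phenotype, and 0.584% and 0.523% with phenotype. Repeat 2 without phenotype had the highest level of all 4 libraries for 32 of 32 subunits, while it was the highest library for 25.1% of the 10194 genes whose mean was 1 FPKM or more. It lay at least 1.5-fold above the highest other library for 31 of 32 subunits, against 2.93% of all genes tested. By the same bound, 0 subunits stood out in any of the other libraries, where 1.6% (repeat 1 without phenotype), 0.383% and 0.922% (both with phenotype) of all genes did. This split was noticed in the values, and a library picked out for its level gives no test.

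**Figure D1:**
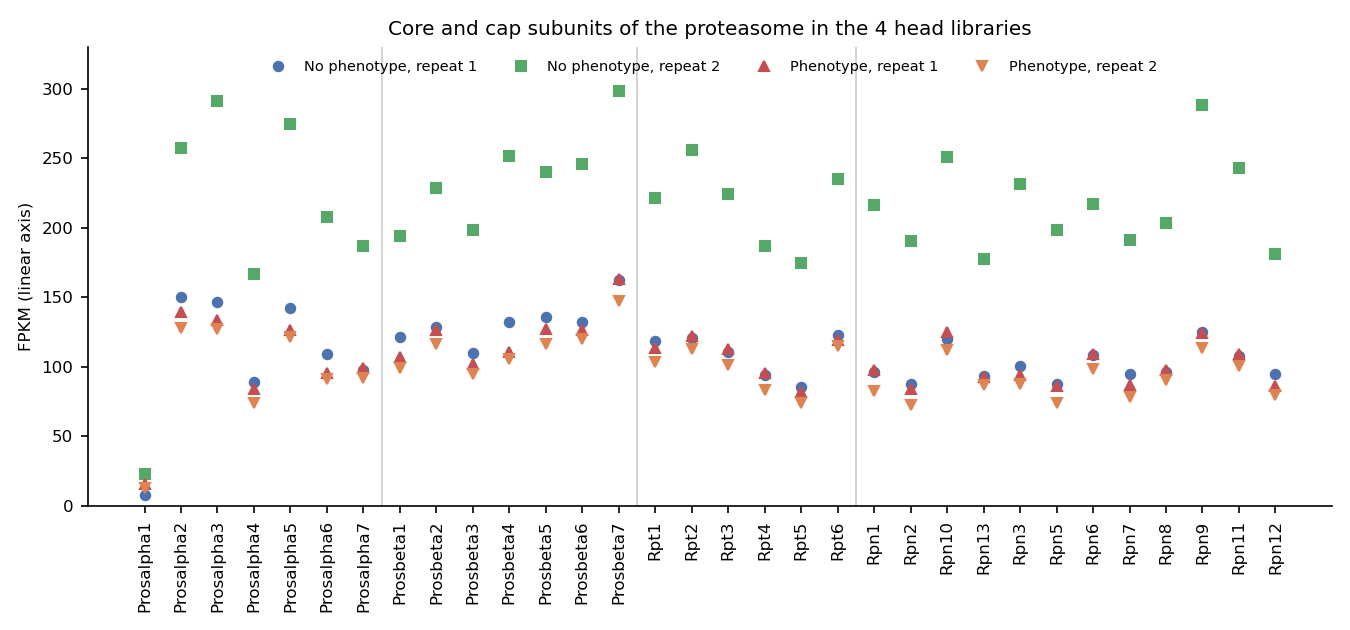
FPKM (linear axis) of each of the 32 core and cap subunits, with 1 point per library and vertical lines between the alpha ring, the beta ring, the Rpt ATPases and the Rpn subunits. The squares of repeat 2 without phenotype lie above the other 3 points of every subunit, and the other 3 points lie close together. The points of Prosalpha1 are near the bottom.

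Of the alpha ring, which forms the gate of the core, the subunits other than Prosalpha1 moved together. Prosalpha3 was at 146.6 and 291 FPKM without and 133 and 127 FPKM with phenotype. Prosalpha5 was at 142 and 275 FPKM without and 126 and 121 FPKM with phenotype. Prosalpha2 was at 149.8 and 258 FPKM without and 139.6 and 128 FPKM with phenotype. In these subunits repeat 2 without phenotype was high, and repeat 1 without phenotype lay just above both libraries with phenotype, so that the groups did not overlap. Prosalpha7 was at 97.3 and 187 FPKM without and 98.9 and 91.5 FPKM with phenotype, so that its groups did overlap, by the value of repeat 1 without phenotype. Prosalpha4 and Prosalpha6 had the pattern of Prosalpha3, with repeat 2 without phenotype at 1.87 and 1.91 times the highest other library.

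Prosalpha1 stood apart in its level. It was at 7.31 and 22.6 FPKM without and 15.3 and 12.6 FPKM with phenotype, while the other 31 subunits were at 72.5 to 299 FPKM. A second copy of the gene, CG30382, now named Prosalpha1R by RefSeq, lies beside it on 2R (7830413 to 7831771 in dm6, against 7827303 to 7828678 for Prosalpha1). CG30382, whose name falls outside the prefix rule, was at 322 and 566 FPKM without and 301 and 283 FPKM with phenotype. RSEM divides reads that match both copies between them, so the level of either alone is uncertain (how much sequence they share was not checked here), and the sum was used beside it. The sum was 329 and 589 FPKM without and 317 and 295 FPKM with phenotype, and repeat 2 without phenotype was 1.79 times the highest other library. The share of the sum given to Prosalpha1 was 2.22% and 3.83% without and 4.84% and 4.25% with phenotype. With the copies summed, this subunit had both libraries without phenotype above both with phenotype, as 21 of the other 31 subunits had, whereas Prosalpha1 alone was lowest in repeat 1 without phenotype.

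The beta ring carries the catalytic threonines in Prosbeta1, Prosbeta2 and Prosbeta5, which cleave after acidic, basic and hydrophobic residues, respectively. Prosbeta1 was at 122 and 194 FPKM without and 107 and 99.3 FPKM with phenotype. Prosbeta2 was at 129 and 228 FPKM without and 126 and 116 FPKM with phenotype. Prosbeta5 was at 136 and 239.97 FPKM without and 127 and 117 FPKM with phenotype. All of the catalytic subunits were again highest in repeat 2 without phenotype, with Prosbeta1 the least raised of the 31 subunits, at 1.6 times the highest other library. Among the noncatalytic subunits, Prosbeta4 was at 132 and 252 FPKM without and 110.2 and 105 FPKM with phenotype, with both libraries with phenotype below repeat 1 without phenotype (0.834 and 0.796 of its level, the lowest of the 31 subunits). Prosbeta7, the most abundant subunit of the prefix rule in every library, was at 162 and 299 FPKM without and 163 and 147 FPKM with phenotype. The sum of Prosalpha1 and its copy CG30382 was higher, at 329 and 589 FPKM without and 317 and 295 FPKM with phenotype. In dm6, Prosbeta4 lies on 2L from 16731180 to 16732133 and Prosbeta7 on 3R from 5357012 to 5358364. Prosbeta3 and Prosbeta6 had no overlap between groups, with repeat 2 without phenotype at 1.8 and 1.86 times the highest other library.

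The Rpt subunits are the ATPases that unfold the substrate and thread it into the core. Rpt2 was at 121 and 256 FPKM without and 122 and 113 FPKM with phenotype. Rpt6 was at 123 and 235 FPKM without and 119 and 114 FPKM with phenotype. Rpt5, the lowest of them, was at 85.4 and 174 FPKM without and 81.6 and 73.5 FPKM with phenotype. Rpt1, Rpt3 and Rpt4 lay at 94.1 to 118 FPKM in repeat 1 and 187 to 224 FPKM in repeat 2 without phenotype, and at 83.1 to 114 FPKM with phenotype. For the 6 ATPases, repeat 2 without phenotype was 1.88 to 2.1 times the highest other library. Repeat 1 with phenotype was at 0.956 to 1.02 of repeat 1 without phenotype.

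The Rpn subunits were raised most in repeat 2 without phenotype. Rpn3, a subunit of the lid, was at 101 and 231 FPKM without and 93.9 and 87.2 FPKM with phenotype. Rpn9, also of the lid, was at 125 and 288 FPKM without and 124 and 114 FPKM with phenotype. Rpn11, the deubiquitinase of the lid, was at 108 and 243 FPKM without and 109 and 101 FPKM with phenotype. For these genes and for Rpn5 of the lid and Rpn1 of the base, repeat 2 without phenotype was more than 2.2-fold above the highest other library, with Rpn9 at 2.3, Rpn3 at 2.3, Rpn5 at 2.27, Rpn11 at 2.23 and Rpn1 at 2.22. Rpn1, a scaffold of the base that also binds ubiquitin, was at 96.0 and 216 FPKM without and 97.6 and 82.2 FPKM with phenotype. For the other Rpn subunits the ratio was 1.9 to 2.18, namely 2.01 and 1.9 for the ubiquitin receptors Rpn10 and Rpn13, 2.18 for Rpn2, the scaffold partner of Rpn1, and 1.91 to 2.08 for Rpn6, Rpn7, Rpn8 and Rpn12 of the lid. In dm6, Rpn3 lies on 2L from 19051790 to 19053681, Rpn9 on 3R from 23731375 to 23733462 and Rpn11 on 2L from 5058404 to 5059790. The 32 subunit genes are spread over the genome, with 4 on 2L, 10 on 2R, 5 on 3L, 9 on 3R and 4 on X.

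The parts of the complex were thus raised unequally in that library. Against the mean of the other 3 libraries, the median over subunits was 1.9-fold for the beta ring (1.78 to 2.17), 2.03-fold for the alpha ring (1.85 to 2.15), 2.07-fold for the Rpt ATPases (1.98 to 2.18) and 2.25-fold for the Rpn subunits (1.95 to 2.46). These ranges overlapped. The ratio of the summed 20S to the summed 19S level does not depend on how a library is scaled, and it was 0.894 in repeat 1 and 0.789 in repeat 2 without phenotype, and 0.847 and 0.868 with phenotype. Repeat 2 without phenotype was lowest. Between the groups the log2 ratio differed by 0.031, which is less than the spread between repeats (pooled SD 0.092; exact permutation p = 1, two-sided, where the smallest p of 2 libraries against 2 is 0.3333). Across the 31 subunits without Prosalpha1, the order of levels was most alike between the libraries with phenotype (Spearman rho 0.98) and between repeat 1 without phenotype and either of them (0.95 and 0.97), and less alike between repeat 2 without phenotype and the others (0.86 to 0.87). These rho are across genes of 1 complex that share their libraries, and they are given as a description.

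**Figure D2:**
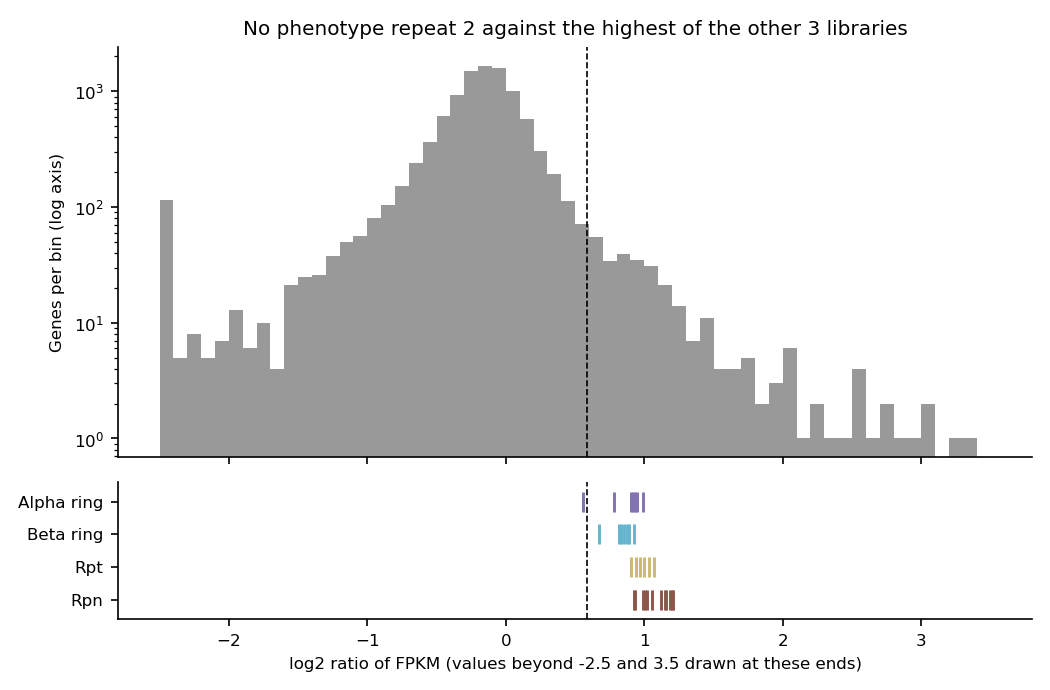
Histogram of the log2 ratio of FPKM in repeat 2 without phenotype to the highest of the other 3 libraries, over genes whose mean was 1 FPKM or more and that are above 0 in these values (gene counts on a log axis), with the core and cap subunits as ticks underneath and a dashed line at 1.5-fold. Of the 32 subunits, 31 lie to the right of the line, where 2.93% of all genes tested lie.

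Between heads with and without phenotype, the mean log2 level of 31 of 32 subunits was lower with phenotype, but none passed the test. The test was limma on log2(FPKM + 1), run over the same 10194 genes, with Benjamini-Hochberg adjustment over all of them and a threshold of 0.1. Of the 35 members tested, 0 passed (0 also at an unadjusted p under 0.05, and 0 with limma without a mean-variance trend), and over all genes tested 9 passed (0.0883%, with 0.0589% higher and 0.0294% lower, and 22.7% at an unadjusted p under 0.05). The log2 fold change was below 0 for 31 of 32 subunits, where it was below 0 for 37.3% of all genes tested. The median was -0.58 over the subunits and 0.07 over all genes tested. Both libraries with phenotype lay below both without for 21 of 32 subunits, 11 of 14 of the core and 10 of 18 of the cap, against 18.3% of all genes tested. In 0 of 32 did they lie above both, against 41.3% of all genes tested.

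The standard errors of the subunits were wide, since the repeats without phenotype differed about 2-fold. The log2 fold change with the largest size was that of Prosbeta4, at 192 ± 84.5 FPKM without and 108 ± 3.54 FPKM with phenotype (mean ± SD, n = 2), a log2 fold change of -0.76 with a standard error of 0.32 (limma, adjusted p = 0.25). Rpn3 followed, at 166 ± 92.4 FPKM without and 90.6 ± 4.78 FPKM with phenotype (mean ± SD, n = 2), a log2 fold change of -0.75 with a standard error of 0.40 (limma, adjusted p = 0.33). Prosbeta1 had the smallest standard error, at 158 ± 51.4 FPKM without and 103 ± 5.61 FPKM with phenotype (mean ± SD, n = 2), a log2 fold change of -0.57 with a standard error of 0.24 (limma, adjusted p = 0.25). Prosalpha1 was the only subunit not below 0, at 14.9 ± 10.8 FPKM without and 13.9 ± 1.97 FPKM with phenotype (mean ± SD, n = 2), a log2 fold change of 0.088 with a standard error of 0.51 (limma, adjusted p = 0.93). The SD with phenotype was 1.97 to 11.2 FPKM over the 32 subunits, and the SD without phenotype 10.8 to 115.4 FPKM. Of 28 muscle genes, a list written after the values were seen, 26 had a log2 fold change below 0 (median -0.49), against 37.3% of all genes tested. None of them passed. At an unadjusted p under 0.05 there were 11, all lower. Over all 10194 genes tested, 22.7% were under it in either direction, 680 of them as lower. The summed level of the muscle genes was 12290 and 11830 FPKM without and 9153 and 8713 FPKM with phenotype. That sum was not higher in repeat 2 than in repeat 1 without phenotype, and its part in the level of the subunits was not tested.

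The size of the difference rested on which repeat without phenotype stood for the group. Without repeat 1 without phenotype, the median log2 fold change of the subunits was -1.08 and 31 of 32 passed as lower (adjusted p from 0.053 to 0.066 from limma, Prosalpha1 at 0.13), while 5.98% of all genes passed, 3.95% as lower, and 22.3% were at an unadjusted p under 0.05. Without repeat 2 without phenotype, the median was -0.11, 0 of 32 passed (smallest adjusted p = 0.17 from limma), and 2 were at an unadjusted p under 0.05, Prosalpha1 as higher and Prosbeta4 as lower, while 1.18% of all genes passed, 0.96% as lower, and 18.7% were at an unadjusted p under 0.05. Without repeat 1 or repeat 2 with phenotype, the median was -0.64 and -0.52, and 0 subunits and 0 genes passed (14.9% and 8.04% of all genes at an unadjusted p under 0.05). In these fits 1 library stands alone for its group and is assumed to vary like the others, so the 31 calls rest on the level of 1 library. In the fit without repeat 2 without phenotype, the median of -0.11 over the subunits stood beside a median of 0.091 over all genes tested. Repeat 1 with phenotype was at 0.834 to 1.04 of repeat 1 without phenotype over the 31 subunits other than Prosalpha1 (median 0.964), and repeat 2 with phenotype at 0.796 to 0.941 (median 0.867). Over all genes tested that were above 0 in every library, the medians of these ratios were 1.055 and 1.085. Prosbeta4 had the lowest ratio of the 31 subunits for both libraries with phenotype.

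**Figure D3:**
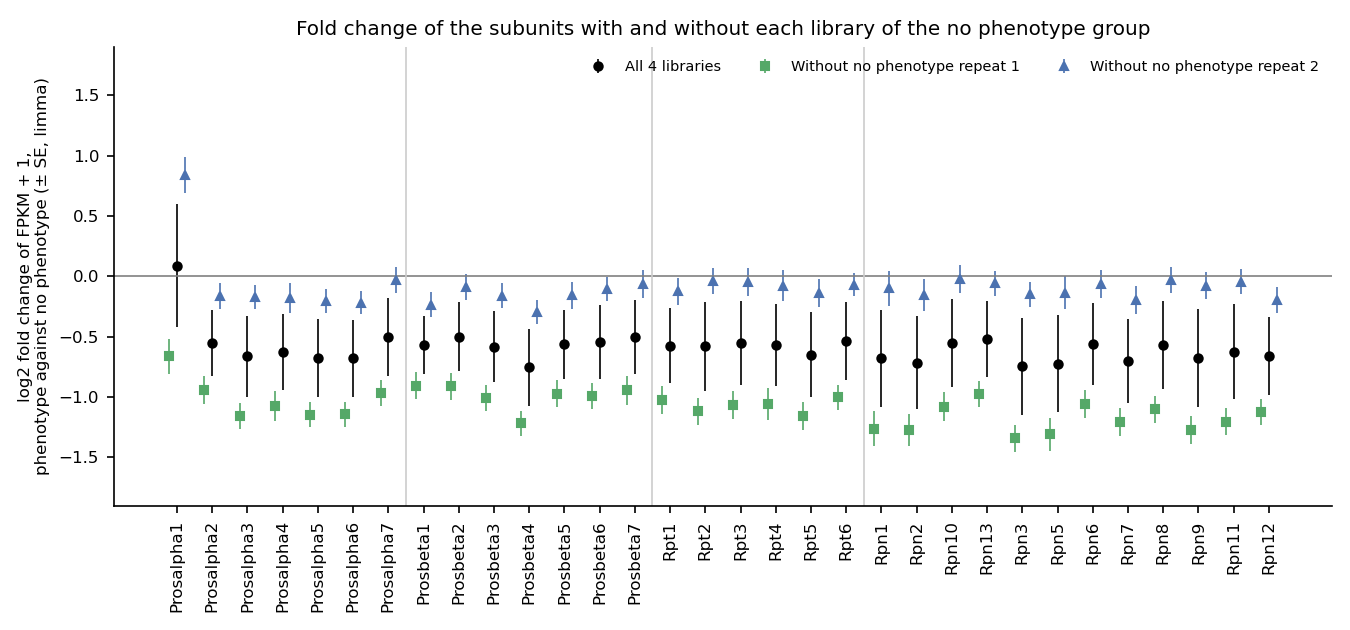
log2 fold change of FPKM + 1 (phenotype against no phenotype, points with the standard error from limma) of each of the 32 subunits, with all 4 libraries and without either library of the no phenotype group. The median over the subunits is -0.58 with all libraries, -1.08 without repeat 1 and -0.11 without repeat 2, and Prosalpha1 is the only subunit above 0 without repeat 2.

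The paralogs were near the lower end of measurement in these heads. Of the 15, 2 had a mean of at least 1 FPKM, Prosalpha4T1 and Rpt6R, and their summed level over all 15 was 3.54 to 7.76 FPKM per library. Prosalpha4T1 was at 1.33 and 1.33 FPKM without and 1.06 and 1.14 FPKM with phenotype (log2 fold change -0.15, limma adjusted p = 0.55). Rpt6R, a paralog of the ATPase Rpt6, was at 1.32 and 4.5 FPKM without and 1.13 and 1.04 FPKM with phenotype (log2 fold change -0.78 with a standard error of 0.43, limma adjusted p = 0.34). Rpt6R was thus 3.41-fold higher in repeat 2 than in repeat 1 without phenotype, a larger step than that of Rpt6 itself (1.92-fold). Rpt6R lies on 3R from 30582198 to 30583697 in dm6 and Rpt6 on X from 21316052 to 21317663. Without repeat 1 without phenotype Rpt6R passed as lower (adjusted p = 0.058 from limma), and without repeat 2 it did not (adjusted p = 0.60 from limma).

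Rpt3R, of the paralogs under the filter, was at 0.72 and 0.91 FPKM without and 0.58 and 0.68 FPKM with phenotype. Prosbeta2R2 was at 0.57 and 0.36 FPKM without and 0.19 and 0.1 FPKM with phenotype, the reverse order of the repeats without phenotype. Prosalpha6T was at 0.33 FPKM in repeat 1 with phenotype and at 0.04 FPKM in each of the other libraries. Prosbeta5R1 was listed at 0 in all libraries, Prosbeta4R1, Prosbeta4R2 and Rpn13R were above 0 in 1 library each, at no more than 0.05 FPKM, and Prosbeta5R2 was at 0 to 0.04 FPKM. Prosalpha3T, Prosalpha4T2, Prosbeta2R1, Rpn12R and Rpt4R were at 0.02 to 0.31 FPKM. By the rough estimate of depth from the smallest values, a step of about 0.02 FPKM is worth about 1 read for a transcript of 1 kb. Values under 0.1 FPKM thus rest on few reads, and differences among them were not detectable at this depth. Of 30 testis markers, 29 had a mean under 1 FPKM and 0.6 to 0.81 FPKM was measured for the testis tubulin betaTub85D. The exception was mia, a factor of testis transcription, at 1.7 and 1.65 FPKM without and 3.21 and 2.99 FPKM with phenotype (adjusted p = 0.14 from limma). The summed level of the list was 5.55 and 5.65 FPKM without and 7.86 and 7.99 FPKM with phenotype, and 8 to 13 of its genes were listed at 0 in each library, among them nht, comr and Mst35Bb in all of them. The summed level of these markers was not higher in repeat 2 than in repeat 1 without phenotype by more than 0.1 FPKM. Its part in the level of Rpt6R was not tested. The scaffold gene Prosap was at 25.1 and 26.0 FPKM without and 27.9 and 26.1 FPKM with phenotype, unlike the subunits.

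**Figure D4:**
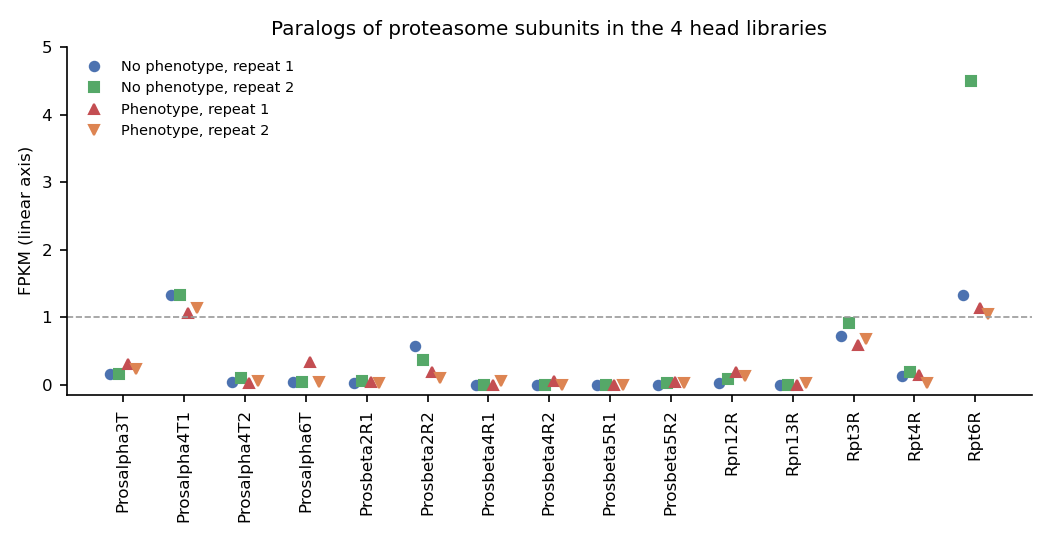
FPKM (linear axis) of the 15 paralogs, with 1 point per library and a dashed line at 1 FPKM, the filter of the test. Only Rpt6R in repeat 2 without phenotype, at 4.5 FPKM, lies far from the rest, and 13 paralogs lie under the line.

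Of the genes that act with the proteasome, some had the high level of the subunits in repeat 2 without phenotype and others did not. Uch-L5, a deubiquitinase of the cap, was at 32.2 and 85.7 FPKM without and 29.6 and 25.3 FPKM with phenotype (-0.92 on the log2 scale, limma adjusted p = 0.31), the largest change in the list of 17 assembly factors, activators and regulators. Usp14, listed as CG5384, the other deubiquitinase that docks on the cap, was at 75.5 and 171 FPKM without and 73.6 and 64.03 FPKM with phenotype. Sem1, a small subunit of the lid whose name falls outside the prefix rule, was at 116 and 249.8 FPKM without and 107 and 108 FPKM with phenotype. For Uch-L5, CG5384 and Sem1, repeat 2 without phenotype was 2.67, 2.27 and 2.15 times the highest other library. The deubiquitinase gene Uch (2.05) and CG12321 and CG11885 (1.91 and 1.84) did likewise. Pomp, the chaperone that matures the core, was raised less, at 74.0 and 108 FPKM without and 66.5 and 63.9 FPKM with phenotype. The core activator REG was level, at 37.8 and 39.7 FPKM without and 39.0 and 39.1 FPKM with phenotype. The mRNA of the transcription factor Cnc was level too, at 79.3 and 85.1 FPKM without and 84.1 and 75.8 FPKM with phenotype. The level and activity of the Cnc protein were not measured. The Cnc partner gene maf-S was at 55 and 53.9 FPKM without and 69.2 and 72.7 FPKM with phenotype (adjusted p = 0.15 from limma). Of the 17 genes 0 passed (3 at an unadjusted p under 0.05, all higher, against 22.7% of all genes tested in either direction). In repeat 2 without phenotype, 6 lay at least 1.5-fold above the highest other library (2.93% of all genes tested). The median log2 fold change was -0.12. Poc1 is counted in this list and is among the 3, at 1.56 and 1.19 FPKM without and 2.23 and 2.51 FPKM with phenotype. In flies it encodes a centriole protein and shares only its name with a proteasome factor.

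Of 19 ubiquitin and first-step transfer genes tested, 2 lay at least 1.5-fold above the highest other library in repeat 2 without phenotype (2.93% of all genes tested). They were the polyubiquitin genes, Ubi-p5E at 741 and 1284 FPKM without and 741 and 746 FPKM with phenotype, and Ubi-p63E at 442 and 719 FPKM without and 459 and 408 FPKM with phenotype. The ubiquitin genes fused to ribosomal proteins did not share this. RpS27A, the most abundant of the list, was at 1246 and 1160.0 FPKM without and 1185 and 1243 FPKM with phenotype, and RpL40 at 1048 and 981 FPKM without and 1038 and 1139 FPKM with phenotype. The activating enzyme gene Uba1 was at 61.8 and 88.6 FPKM without and 67.1 and 61.1 FPKM with phenotype, between these patterns. The largest change in the list was that of the conjugating enzyme gene Ubc84D, at 1.02 and 0.88 FPKM without and 1.9 and 1.52 FPKM with phenotype (adjusted p = 0.20 from limma). In this list 0 passed (2 at an unadjusted p under 0.05, against 22.7% of all genes tested), and the median log2 fold change was -0.073.

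Of 20 genes of substrate delivery, 2 lay at least 1.5-fold above the highest other library in repeat 2 without phenotype (2.93% of all genes tested). They were Ufd1-like and Plap, which act with the segregase TER94 (p97). Ufd1-like, the largest change of the list, was at 51.0 and 87.6 FPKM without and 47.5 and 46.8 FPKM with phenotype (adjusted p = 0.32 from limma). TER94 itself was at 149.7 and 239 FPKM without and 160.3 and 137 FPKM with phenotype, just under that bound. Rad23, a shuttle that brings ubiquitinated proteins to the cap, was at 68.8 and 98.9 FPKM without and 68.1 and 66.8 FPKM with phenotype. The shuttle gene Ubqn was not raised, at 49.6 and 47.2 FPKM without and 56.3 and 52.1 FPKM with phenotype. The autophagy receptor gene ref(2)P, the fly p62, was higher in both libraries with phenotype, at 139 and 156 FPKM without and 201 and 177 FPKM with phenotype (adjusted p = 0.19 from limma). In this list 0 passed (4 at an unadjusted p under 0.05, all higher, against 22.7% of all genes tested in either direction). The median log2 fold change was 0.12.

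The COP9 signalosome, which is built like the lid and cuts NEDD8 from cullins, differed less between the libraries. Repeat 2 without phenotype was the highest library for 7 of its 8 genes tested (25.1% of all genes tested), at 0.939 to 1.28 times the highest other library. CSN5, its catalytic subunit and the largest change of its list, was at 18.6 and 24 FPKM without and 18.8 and 18.4 FPKM with phenotype (adjusted p = 0.45 from limma). CSN7, the most abundant, was at 33.1 and 38.3 FPKM without and 33.9 and 33.8 FPKM with phenotype. Of the 8 genes tested, 0 lay at least 1.5-fold above the highest other library in repeat 2 without phenotype (2.93% of all genes tested). None passed (0 at an unadjusted p under 0.05, against 22.7% of all genes tested), and the median log2 fold change was -0.038. Against the mean of the other 3 libraries, the median in repeat 2 without phenotype was 1.11-fold for the assembly and regulator genes, 1.11-fold for the ubiquitin genes, 1.01-fold for substrate delivery and 1.12-fold for the signalosome, beside 1.94-fold for the core and 2.15-fold for the cap. Over all genes tested it was 0.973-fold.

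**Figure D5:**
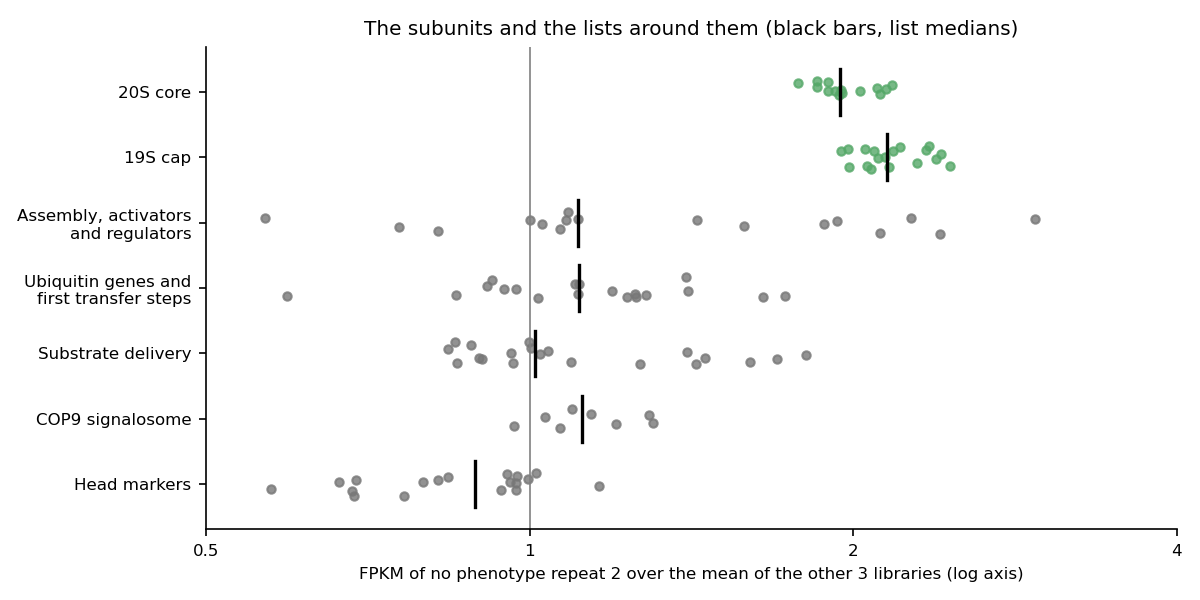
FPKM in repeat 2 without phenotype over the mean of the other 3 libraries (log axis), with 1 point per gene whose mean was 1 FPKM or more and black bars at the list medians. The core and cap lie at 1.78 to 2.46, the head markers at 0.575 to 1.16, and the assembly and regulator list is spread from 0.567 to 2.96. The lower end of that list is Poc1, which is no proteasome gene in flies.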

How the data were processed

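mRNA-seq of 4 libraries of male heads (10 heads each, polyA-selected, single-end reads of 50 cycles) was used. RSEM with Bowtie 2 on RefSeq mRNAs of dm6 was used by the authors to make the deposited table, which gives FPKM per gene to 2 decimals, so no count test was run. Per the submitters' processing notes dm3 stands beside dm6 with no role. The study used dm3 as the reference for its whole genome sequencing. Versions of these tools were not found in the sources used.

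A mean of 1 FPKM or more was required of a gene. On log2(FPKM + 1), the groups were compared two-sided by limma (version 3.58.1, R 4.3.3, moderated with a mean-variance trend). Benjamini-Hochberg adjustment covered all genes tested, and adjusted p under 0.1 was called. Fold changes on this scale understate those of genes with few FPKM. The study's own tool, EBSeq, works on counts and was not run. Tables were made with Python 3.11.15 and pandas 2.3.3. Gene positions are those of the Ensembl annotation of dm6, and list names were matched through RefSeq symbols and synonyms.

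All members were named. Of the other lists, genes past the threshold, the member of highest mean FPKM and the member with the largest change were named, and further genes were chosen after their values were seen. Members, lists and tests were chosen with earlier results of these data known. The ratio of repeat 2 without phenotype to the other libraries, with its bound of 1.5-fold, was chosen after the values were seen, and so was the list of muscle genes. No sequences were used, so the planned search for promoter motifs was not run. Repeats are called biological in the labels, but how flies were assigned to them is not stated, so p-values measure the spread between these samples.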

Additional observations from a re-analysis of the deposited data

How the results depend on the processing

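With 2 libraries per group and 1 of them far above the rest in its subunit level, the comparison of groups has little precision, and depth was only estimated, from the smallest FPKM values. The count of genes that passed, 9, was 23 on log2(FPKM + 0.1), 3 with no filter, 109 at a mean of at least 5 FPKM, 4 with median ratio scaling, 5 with limma without trend, 4 at an adjusted p under 0.05 and 0 to 607 when 1 library was left out. With the replicate number as a block it was 0, and the median log2 fold change of the subunits stayed at -0.58 with this pairing. The same-numbered libraries deviated against each other (r = -0.13 across 10194 genes), so a crossed replicate block was added after the data were seen and called 404 genes, with 0 members (18 at an unadjusted p under 0.05). The cause of these shifts was not tested. The count of members that passed was 0 under every alternative with all 4 libraries and 0 to 32 when 1 library was left out, 32 without repeat 1 without phenotype (31 subunits and Rpt6R). The subunits with both libraries with phenotype below both without numbered 21, and 31 with median ratio scaling, which also moved the median log2 fold change of all genes tested below 0 and that of the subunits to -0.66. When 1 library was left out, they numbered 21 to 32, the median ranged from -1.08 to -0.11, and the log2 ratio of 20S to 19S from -0.059 to 0.12. Prosalpha1 turned lower without repeat 1 without phenotype (-0.66 on the log2 scale, limma adjusted p = 0.13) or without repeat 1 with phenotype (-0.046), with a highest value of 0.84 without repeat 2 without phenotype, and Prosap turned to -0.0033 with median ratio scaling. The count of subunits without overlap has no value under a block.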

Other observations

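Other genes had the pattern of the subunits. By a rule chosen after the values were seen, 87 of 4404 genes whose mean was 20 FPKM or more (1.98%) were at least 1.5-fold above the highest other library in repeat 2 without phenotype while the other 3 libraries differed by no more than 25% of the lowest. They held 30 of the 32 subunits (Prosalpha1 and Prosbeta4 were outside), 10 genes of the other lists and 47 in no list. Among the 47 was CG30382, the second copy of Prosalpha1, with repeat 2 without phenotype at 1.76 times the highest other library. Sclp had the highest ratio to the highest other library (3.48), at 166 and 602 FPKM without and 173 and 145 FPKM with phenotype. Fem-1 (2.34) and Asph (2.32) were also high. The genes named next were picked after their values were seen and do not stand for the 47. CG9934, named Ube4B by RefSeq, a ubiquitin chain elongation factor, was at 53.4 and 146 FPKM without and 52.9 and 53.3 FPKM with phenotype. TppII, tripeptidyl-peptidase II, which degrades peptides that the proteasome releases, was at 46.6 and 108 FPKM without and 50.9 and 43.2 FPKM with phenotype. Txl, a thioredoxin-like gene, was at 65.5 and 127 FPKM without and 64.2 and 61.0 FPKM with phenotype. Ho, the heme oxygenase gene, was at 86.3 and 185 FPKM without and 78.6 and 79.3 FPKM with phenotype. CG13624, named REPTOR by RefSeq, a transcription factor downstream of TOR, was at 38.3 and 78.1 FPKM without and 40.1 and 38.1 FPKM with phenotype.

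Some muscle genes were high in the same library. Of 28, a list written after the values were seen, 3 lay at least 1.5-fold above the highest other library there (2.93% of all genes tested), TpnC47D, tn and tmod. The ring finger gene tn, which encodes a ubiquitin ligase of muscle, was at 93.1 and 221 FPKM without and 79.8 and 76.3 FPKM with phenotype, and tmod, tropomodulin, at 314 and 730.4 FPKM without and 306 and 259.9 FPKM with phenotype. TpnC47D, the largest change of the list, was at 42.8 and 172 FPKM without and 32.1 and 14.9 FPKM with phenotype. The most abundant muscle gene, Act57B, was at 2157 and 1739.8 FPKM without and 1588 and 1401 FPKM with phenotype. LysP, a lysozyme gene of the digestive list, was at 7.79 and 74.3 FPKM without and 4.31 and 9.53 FPKM with phenotype, unlike the digestive genes that were lowest in repeat 2 without phenotype.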
